A study of Mus musculus with 12 samples.

Results

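The 9 genes described here encode transcription factors that set up or maintain the macrophage lineage, and they were chosen by name: Spi1 (PU.1), Cebpa, Cebpb, Cebpd, Maf, Klf4, Runx1, Mitf and Bhlhe40. They are 9 of 53801 gene records, and 8 of them were among the 13078 genes tested. Maf reached 1 FPKM (fragments per kilobase, normalised for library size) in no library and was not tested.

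RNA was sequenced from RAW264.7, a mouse macrophage-like line grown in DMEM with serum. Cells given a control small interfering RNA (siRNA) are called control cells, and cells given one against Synbindin, a vesicle-tethering subunit encoded by Trappc4, are called silenced cells. Each was collected without lipopolysaccharide (LPS, a bacterial wall component sensed by Toll-like receptor 4) or after 4 h at 100 ng/ml, which gave 4 groups of 3 libraries. All groups share 1 established line, and the labels do not say that replicates came from separate transfections. The p-values therefore cover the variation among these libraries only, part of which may be technical. In RNA from whole cultures, fewer cells of a kind and less RNA per cell cannot be told apart.

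PU.1 is an ETS-domain factor that opens and marks myeloid enhancers, where C/EBP and RUNX factors bind beside it. C/EBPα drives the commitment of progenitors to the myeloid lineage, while C/EBPβ and C/EBPδ share its DNA-binding domain and are known for their part in the inflammatory response of mature macrophages. KLF4 is known in monocyte differentiation, MAF in the differentiated state, MITF in lysosomal and osteoclast genes, and BHLHE40 as a repressor in activated macrophages.

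The line carried the markers of its label. Of 12 macrophage markers, 11 were tested and only Mertk, a receptor for dying cells, was not. Their summed level was 1857 to 2202 FPKM over the control libraries and 2488 to 3251 FPKM over the silenced ones. Such a sum gives most weight to abundant genes. On the log2(FPKM + 1) scale, silenced cells differed in Lyz2 by 1.11 without LPS and 1.22 after it. The median over the tested markers was 0.32 and 0.54. Csf1r (-0.22) and Cd68 (-0.21) were the only tested markers lower after LPS, and neither was called. Silenced cells were called higher in 3 of the 11 after LPS (Lyz2, Msr1 and Fcgr1) and lower in none, against 0.719% of all genes called in that comparison. That count was 0 to 3 when 1 library was left out, 2 with quantile normalization and 0 when only the groups compared were fitted, a setting under which no gene was called for silencing after LPS. The part of these markers in the results below was not tested. Of the markers of other cell types, none of 6 for B cells, 6 for fibroblasts and 5 for epithelium reached 1 FPKM in any library. Lck was the only 1 of 6 T and NK cell markers to do so, and Cebpe the only 1 of 8 neutrophil markers, with Ly6g and Mpo at 0 throughout. Of 6 osteoclast markers 5 were present, with Calcr at 0. Libraries held 11672 to 12351 genes at 1 FPKM or more. Their depth is unknown: per library, only 4.73% to 12.1% of the low FPKM values could be read as whole fragments to within 1%.

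Trappc4 was lower in silenced cells at both times, at 13.2 ± 0.793 against 5.89 ± 1.43 FPKM without LPS and 13.0 ± 3.22 against 7.28 ± 1.26 after LPS (mean ± SD, n = 3). Averaged over both times its difference was -0.90 ± 0.14 (log2(FPKM + 1), SE) and passed the test (limma, adjusted p = 0.00937). At the single times the adjusted p was 0.0558 and 0.120.

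LPS reordered the factors, while silencing moved none past the test. With 4 h of LPS, Spi1 and Cebpd rose and Cebpa, Runx1, Klf4 and Bhlhe40 fell, in control and in silenced cells alike. Cebpb and Mitf passed in neither. After LPS, Cebpb was higher in silenced than in control cells by 0.74 on the log2 scale, with an adjusted p of 0.0833 that depends on 1 control library.

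**Figure D1:**
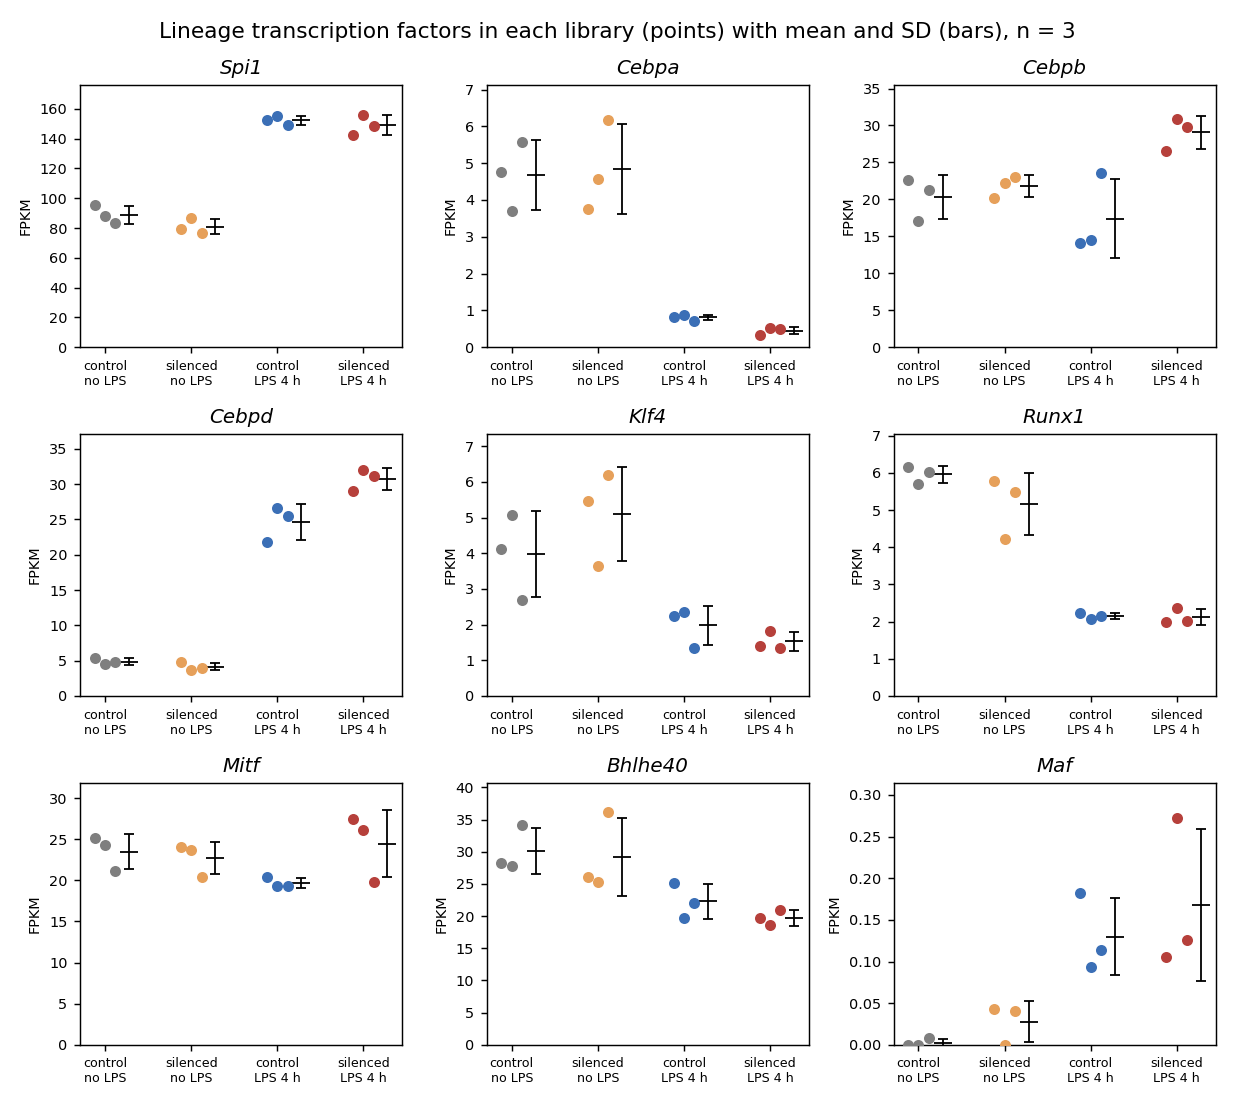
FPKM (y axis, from 0) of the 9 factors in each library (points) of the 4 groups (x axis), with the mean and SD over 3 libraries (bars). Spi1 and Cebpd lie higher and Cebpa and Runx1 lower in every LPS library than in every library without LPS, and in control cells after LPS 1 Cebpb library stands at 23.5 FPKM, above the other two.

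Levels per transcript length differed widely between the factors. Spi1 was the highest member in all 4 groups, at 88.8 ± 6.05 FPKM in control cells without LPS. Next came Bhlhe40 (30.1 ± 3.59), Mitf (23.5 ± 2.12) and Cebpb (20.3 ± 2.92), of which Mitf and Cebpb overlapped between libraries and Bhlhe40 lay above both. Runx1 (5.96 ± 0.241) lay above Cebpd (4.88 ± 0.485), Cebpa (4.68 ± 0.946) and Klf4 (3.97 ± 1.20) in every library, and the last 3 overlapped. After LPS, Cebpd took the second place among these factors in control cells at 24.6 ± 2.56 FPKM, in the range of Bhlhe40 (22.3 ± 2.68). In silenced cells after LPS, Cebpd (30.7 ± 1.57) and Cebpb (29.1 ± 2.22) stood together above Mitf (24.4 ± 4.06) and Bhlhe40 (19.8 ± 1.23), although the highest Mitf library lay within the range of Cebpb.

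The effect of LPS was tested in each kind of cell. In control cells 6 of the 8 tested factors were called (adjusted p under 0.05), 2 higher and 4 lower. Over all genes tested 48.2% were called, 15.3% higher and 32.9% lower. In silenced cells the same 6 factors were called, 2 higher and 4 lower, against 48.5% of all genes, 13% higher and 35.5% lower. The groups with and without LPS did not overlap for 7 of the 8 factors in either kind of cell, against 56.2% and 57.8% of all genes. Each of these counts includes Cebpa, which reached 1 FPKM, the limit for testing, only in libraries without LPS. A gene of this pattern had to differ. The factors' median difference was -0.33 in control and -0.22 in silenced cells, beside -0.17 and -0.21 for all genes.

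That shift of all genes depends on the scaling of the libraries. Median-ratio scaling moved the median of all genes to 0.03 in control and 0.02 in silenced cells, and the share of called genes that were higher from 31.7% to 53.3% and from 26.8% to 51.6%. With quantile normalization these shares were 42.6% and 40.2%.

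PU.1 is the ETS factor that defines the myeloid lineage. Spi1 (chr2:91082390-91115756, plus strand, GRCm38) measured 95.2, 88.1 and 83.1 FPKM in control cells without LPS and 153, 155 and 149 after it. In silenced cells it measured 79.5, 86.8 and 76.7 without LPS and 143, 156 and 148 after it. Every LPS library lay above every library without LPS, and the control and silenced cells overlapped at both times. LPS raised it by 0.77 ± 0.07 in control (limma, adjusted p = 6.89e-06) and by 0.87 ± 0.07 in silenced cells (2.46e-06), which is 0.95 and 1.08 above the median of all genes.

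The other myeloid ETS factors did not move as a group. Of 9 tested genes of that list, Spi1 included, 4 rose and 4 fell with LPS in both kinds of cell. For comparison, control cells had 15.3% of all genes called higher with LPS and 32.9% lower. Silenced cells had shares of 13% and 35.5%. Ets2, a target of growth factor signalling, rose from 7.29 ± 0.195 to 17.0 ± 1.03 FPKM in control cells (1.12 ± 0.13), and the repressors Etv6 and Etv3 rose by 0.99 ± 0.15 and 1.32 ± 0.21. Fli1, a factor of blood stem cells and megakaryocytes, fell from 12.3 ± 2.02 to 2.30 ± 0.271 FPKM (-2.01 ± 0.14, limma adjusted p = 7.38e-07). Elf2 and Elf4 fell by 1.22 and 1.23. The fall of Elf1 (-0.40 ± 0.08) did not pass with median-ratio scaling, and Gabpa (-0.15 ± 0.07) did not pass in either kind of cell.

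The C/EBP factors diverged. Cebpa, Cebpb and Cebpd bind the same DNA motif as dimers, and each is a gene with a single exon in the annotation. Their FPKM are set side by side below, which rests on the annotated lengths of 2636, 1504 and 3746 exon bases. It also rests on how bases shared with genes on the opposite strand were counted, which is not known. The promoters of Cebpa and Cebpb are shown because the ratio of these genes is followed below. They are the 250 bases before the start in RefSeq's table (GRCm38.p6), 5′ to 3′, at chr7:35119043-35119292 and chr2:167688665-167688914, both on the plus strand. Capitals mark matches to TATAAA (the TATA box) and to TGACG (the core of the site of CREB and ATF factors) on either strand.
Cebpa: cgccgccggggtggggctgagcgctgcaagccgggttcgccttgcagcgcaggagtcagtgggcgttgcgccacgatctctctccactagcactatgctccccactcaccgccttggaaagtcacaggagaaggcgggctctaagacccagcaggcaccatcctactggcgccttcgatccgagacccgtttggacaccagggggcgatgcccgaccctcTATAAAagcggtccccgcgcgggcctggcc
Cebpb: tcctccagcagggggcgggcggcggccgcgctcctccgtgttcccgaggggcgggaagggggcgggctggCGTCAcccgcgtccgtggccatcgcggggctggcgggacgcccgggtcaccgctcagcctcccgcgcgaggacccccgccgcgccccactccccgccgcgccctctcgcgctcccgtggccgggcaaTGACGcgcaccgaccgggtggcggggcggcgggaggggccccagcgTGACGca

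The Cebpa window holds TATAAA 30 bases before the start and no TGACG. The Cebpb window holds TGACG at 180, 53 and 7 bases before the start and no TATAAA. Of 32851 promoter windows of that length in the table, 12.4% hold TATAAA and 17.8% hold TGACG. The table matched 5 of the 9 factors (also Klf4, Runx1 and Mitf), and these matches describe the letters in the window only.

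C/EBPα is the commitment factor of the family. Cebpa (chr7:35119293-35121928, plus strand) measured 4.77, 3.70 and 5.59 FPKM in control cells without LPS and 0.824, 0.873 and 0.723 after it. In silenced cells it measured 3.76, 4.58 and 6.19 without LPS and 0.339, 0.525 and 0.488 after it. All 6 LPS libraries were below 1 FPKM and lay below all libraries without LPS. Cebpa passed the limit on low values only through the libraries without LPS, so a gene of this pattern had to differ. Its difference was -1.64 ± 0.17 in control (limma, adjusted p = 1.12e-05) and -1.99 ± 0.17 in silenced cells (2.35e-06), and the scale of log2(FPKM + 1) understates changes at such levels.

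C/EBPδ went the other way. Cebpd (chr16:15887286-15891031, plus strand) measured 5.42, 4.48 and 4.74 FPKM in control cells without LPS and 21.8, 26.7 and 25.5 after it. In silenced cells the values were 4.76, 3.71 and 3.98, and after LPS 29.0, 32.1 and 31.2. The LPS libraries stood far above the others in both kinds of cell, and after LPS all 3 silenced libraries were above all 3 control libraries. LPS raised Cebpd by 2.12 ± 0.11 in control (limma, adjusted p = 5.23e-08) and 2.63 ± 0.11 in silenced cells (8.09e-09).

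C/EBPβ is the member best known for inflammatory gene control. Cebpb (chr2:167688915-167690418, plus strand) measured 22.6, 17.0 and 21.3 FPKM in control cells without LPS and 14.1, 14.6 and 23.5 after it. In silenced cells it measured 20.2, 22.2 and 23.0 without LPS and 26.6, 30.8 and 29.8 after it. Control cells overlapped between the times because of the third LPS library, and silenced cells after LPS lay above every other library of the series. The LPS difference was -0.24 ± 0.17 in control (limma, adjusted p = 0.269) and 0.40 ± 0.17 in silenced cells (0.0736), or -0.07 and 0.61 relative to the median of all genes. Without the third control LPS library the values were -0.47 (adjusted p = 0.0103) and 0.40 (0.0108). With median-ratio scaling the increase in silenced cells was 0.67 (0.00979).

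Of 7 tested genes listed under the C/EBP family, 1 rose and 2 fell with LPS in control cells. In silenced cells 1 rose and 4 fell. The list includes Cebpa, Cebpb and Cebpd, and holds Cebpz by its symbol only. For all genes the shares called higher and lower were 15.3% and 32.9%, and 13% and 35.5%. The falls include Cebpa, which entered the test only through the libraries without LPS. With median-ratio scaling 2 rose and 1 fell in each kind of cell. Cebpg, a partner that lacks an activation domain, fell from 12.1 ± 0.812 to 8.77 ± 1.47 FPKM in control cells (-0.43 ± 0.15), which did not pass with median-ratio scaling or quantile normalization. In silenced cells Cebpg (-0.45 ± 0.15) passed with neither scaling, and Cebpz (-0.34 ± 0.07) did not pass with median-ratio scaling. Cebpe (-0.41 ± 0.15), known from granulocytes, passed with neither of those scalings. Ddit3, a stress-induced relative, measured 0.15 ± 0.21 and 0.17 ± 0.21.

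Cebpb shares 312 exon bases with Tmem189 on the opposite strand, and Cebpd shares 562 with Spidr. The libraries keep strand information, but whether the counting used it is not given in the sources used here. Tmem189 measured 34.1 ± 3.68 FPKM in control and 30.8 ± 0.354 in silenced cells after LPS, and fell with LPS in both (-0.35 ± 0.08 and -0.51 ± 0.08). Spidr also fell with LPS (-0.33 ± 0.11 and -0.45 ± 0.11), opposite in direction to Cebpd.

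As a share of the summed FPKM of Cebpa, Cebpb and Cebpd, control cells held 15.6% Cebpa, 68.0% Cebpb and 16.4% Cebpd without LPS. After LPS the shares were 1.92%, 40.1% and 58.0%. Silenced cells held 15.6%, 70.8% and 13.6% without LPS and 0.743%, 48.2% and 51.0% after it. The sum itself was 29.9 ± 4.09 and 30.8 ± 2.25 FPKM without LPS in control and silenced cells, and 42.8 ± 6.54 and 60.3 ± 3.89 after LPS.

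The ratio of Cebpb to Cebpa was 4.74, 4.60 and 3.82 in control cells without LPS and 17.1, 16.7 and 32.5 after it. In silenced cells it was 5.36, 4.84 and 3.72 without LPS and 78.4, 58.7 and 61.1 after it. Every LPS library had a higher ratio than every library without LPS, and after LPS every silenced library had a higher ratio than every control library. Over both kinds of cell the ratio was 8.29 times as high with LPS, which is given as a description only, since its denominator Cebpa entered the table of tested genes through the libraries without LPS.

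Silencing multiplied the ratio by 3.12 after LPS, with p = 0.1 in the exact permutation test of 3 against 3 libraries, the smallest it allows (adjusted over the 4 ratio tests run, p = 0.133). Without LPS the factor was 1.05 (exact permutation p = 0.7), and leaving out control replicate 3 or silenced replicate 1 turned its direction. Over both times it was 1.81 (exact permutation p = 0.035, adjusted p = 0.07). That p rose to between 0.05 and 0.075 without any 1 of 6 libraries, of which 5 were silenced and 1 was control replicate 3 without LPS. After LPS the denominator Cebpa was below 1 FPKM throughout, at 0.807 ± 0.0765 in control and 0.451 ± 0.0983 in silenced cells. The Cebpa difference for silencing was itself not called (limma, adjusted p = 0.461), and the depth behind such low values is unknown.

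**Figure D2:**
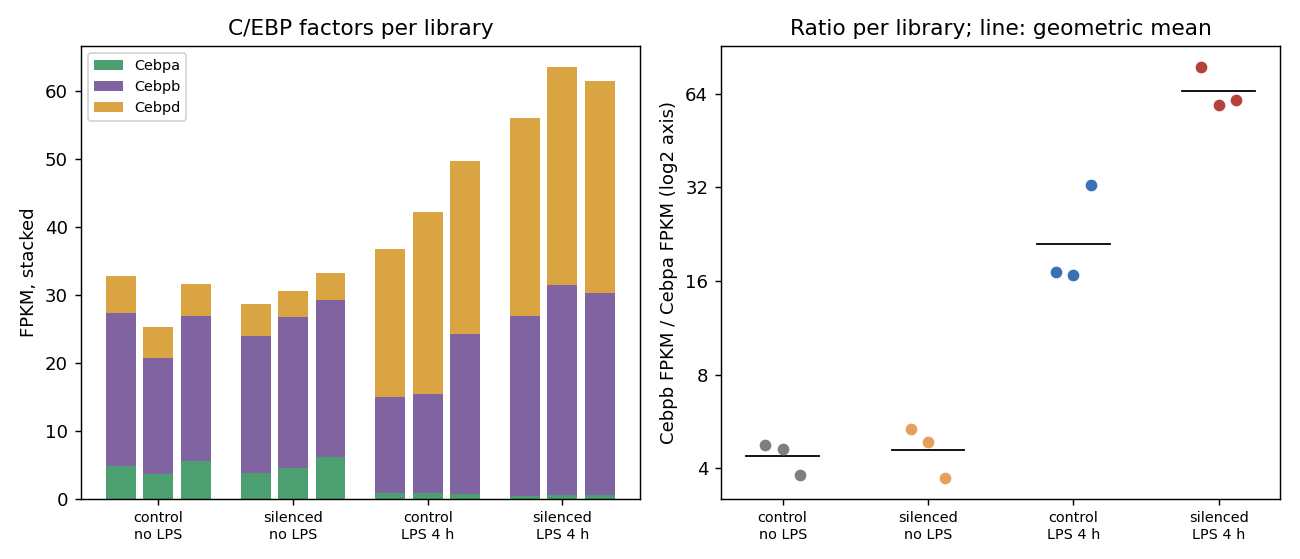
Left, FPKM of Cebpa, Cebpb and Cebpd stacked for each library (bars from 0) in the 4 groups. Right, the ratio of Cebpb to Cebpa FPKM per library (points, log2 axis) with the geometric mean of each group (lines). Single libraries run from 3.72 to 5.36 without LPS and from 16.7 to 78.4 after it, and the geometric means are 4.37 and 4.59 without LPS and 21.0 and 65.5 after it in control and silenced cells.

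RUNX1 builds the blood lineage and binds DNA with its partner CBFβ. Runx1 (chr16:92601466-92826149, minus strand) measured 6.16, 5.69 and 6.03 FPKM in control cells without LPS and 2.22, 2.08 and 2.15 after it. In silenced cells the values were 5.79, 4.22 and 5.48, and after LPS 1.99, 2.36 and 2.02. The LPS libraries of both kinds of cell lay together, below all others. The difference was -1.14 ± 0.11 in control (limma, adjusted p = 8.40e-06) and -0.97 ± 0.11 in silenced cells (2.69e-05).

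Cbfb fell with LPS as well, from 52.0 ± 5.24 to 38.4 ± 1.55 FPKM in control cells (-0.42 ± 0.08), though not past the test with median-ratio scaling, and by 0.81 in silenced cells. Runx2, a bone factor that reached 1 FPKM only without LPS, passed in silenced cells alone (-0.75 ± 0.17, against -0.33 ± 0.17 in control cells), and that difference was not called (interaction adjusted p = 0.542). Of 3 tested genes of this group, 2 fell in control and 3 in silenced cells, where 32.9% and 35.5% of all genes were called lower. With median-ratio scaling 1 fell in control cells. The count in silenced cells includes Runx2, which entered the test only through the libraries without LPS.

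KLF4 is a zinc-finger factor of the monocyte path. Klf4 (chr4:55527143-55532466, minus strand) measured 4.13, 5.08 and 2.69 FPKM in control cells without LPS and 2.23, 2.36 and 1.34 after it. In silenced cells the values were 5.48, 3.63 and 6.20, and after LPS 1.41, 1.83 and 1.36. LPS libraries were lower throughout, with a narrower gap in control cells. The fall was -1.25 ± 0.22 in silenced cells (limma, adjusted p = 0.000601) and -0.73 ± 0.22 in control cells (0.0169), or -1.04 and -0.55 relative to the median of all genes. The control value did not pass with median-ratio scaling (-0.55, 0.0540), with quantile normalization (-0.48, 0.102), or without control replicate 1 (0.0506) or 2 (0.0695) without LPS or control LPS replicate 3 (0.0700).

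Of 10 tested KLF genes, 2 rose and 7 fell with LPS in both kinds of cell, where 32.9% and 35.5% of all genes were called lower in control and silenced cells. The shares called higher were 15.3% and 13%. In control cells 6 fell with median-ratio scaling or quantile normalization. Klf11 passed the limit on low values only through the libraries without LPS. Klf2, a brake on inflammatory activation, fell from 4.14 ± 0.144 to 1.41 ± 0.416 FPKM in control cells (-1.11 ± 0.17). Klf9, Klf10, Klf11, Klf13 and Klf16 fell by between 0.58 and 1.29. Klf6, known to promote inflammatory genes, rose from 43.9 ± 4.59 to 83.5 ± 14 FPKM (0.90 ± 0.13), and Klf7 rose by 0.77 ± 0.11. Klf8 measured -0.08 ± 0.19 and did not pass.

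MITF controls lysosomal genes and, with TFE3, osteoclast genes. Mitf (chr6:97807052-98021349, plus strand) measured 25.1, 24.3 and 21.1 FPKM in control cells without LPS and 20.4, 19.3 and 19.3 after it. In silenced cells it measured 24.0, 23.7 and 20.4 without LPS and 27.4, 26.1 and 19.8 after it. Control libraries after LPS lay just below those without it, while silenced libraries overlapped, with replicate 3 low at both times. The LPS difference was -0.24 ± 0.12 in control (limma, adjusted p = 0.117) and 0.09 ± 0.12 in silenced cells (0.561), or -0.07 and 0.30 relative to the median of all genes. Neither value is stable under scaling, since median-ratio scaling gave -0.01 (0.926) and 0.36 (0.0186), and without silenced LPS replicate 3 the control value passed at 0.0462.

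Its relatives split. Tfeb, a master factor of lysosome formation, fell from 3.40 ± 1.40 to 0.782 ± 0.431 FPKM in control cells (-1.29 ± 0.25). Tfec, which is largely confined to macrophages, rose from 0.667 ± 0.265 to 1.48 ± 0.209 (0.58 ± 0.16). Tfe3 measured -0.27 ± 0.11 and did not pass. The 4 tested genes gave 1 rise and 1 fall in each kind of cell, although in control cells the falls numbered 1 to 3 when 1 library was left out and 0 to 2 under the other settings. Over all genes, 15.3% and 13% were called higher and 32.9% and 35.5% lower in control and silenced cells.

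BHLHE40 is a basic helix-loop-helix repressor. Bhlhe40 (chr6:108660629-108666925, plus strand) measured 28.3, 27.8 and 34.2 FPKM in control cells without LPS and 25.1, 19.7 and 22.1 after it. In silenced cells the values were 26.1, 25.3 and 36.2, and after LPS 19.7, 18.6 and 21.0. LPS libraries lay below the others in both kinds of cell, and replicate 3 was the highest without LPS in both. The fall was -0.42 ± 0.14 in control (limma, adjusted p = 0.0284) and -0.52 ± 0.14 in silenced cells (0.00886), or -0.24 and -0.31 relative to the median of all genes. With median-ratio scaling neither passed (-0.19, 0.318, and -0.25, 0.185), and the control value also did not pass without control replicate 3 without LPS (0.104) or control LPS replicates 2 (0.101) or 3 (0.0633). Its close relative Bhlhe41 fell further, from 5.22 ± 1.80 to 1.11 ± 0.394 FPKM in control cells (-1.54 ± 0.24).

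MAF was nearly silent. Maf (chr8:115682942-115707794, minus strand) measured 0, 0 and 0.00815 FPKM in control cells without LPS and 0.182, 0.0938 and 0.114 after it. In silenced cells the values were 0.0433, 0 and 0.0404, and after LPS 0.105, 0.272 and 0.126. All LPS values lie above all others, at levels too low for a test. Of its family, Mafk and Maff, small MAF proteins without an activation domain, rose with LPS in control cells from 7.76 ± 0.856 to 24.5 ± 3.91 FPKM and from 2.32 ± 0.209 to 9.47 ± 0.554. Mafg fell by 0.35, which did not pass with median-ratio scaling. Each of these kept its direction in silenced cells (1.58 ± 0.12 for Mafk, 1.19 ± 0.26 for Maff and -0.43 ± 0.08 for Mafg).

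**Figure D3:**
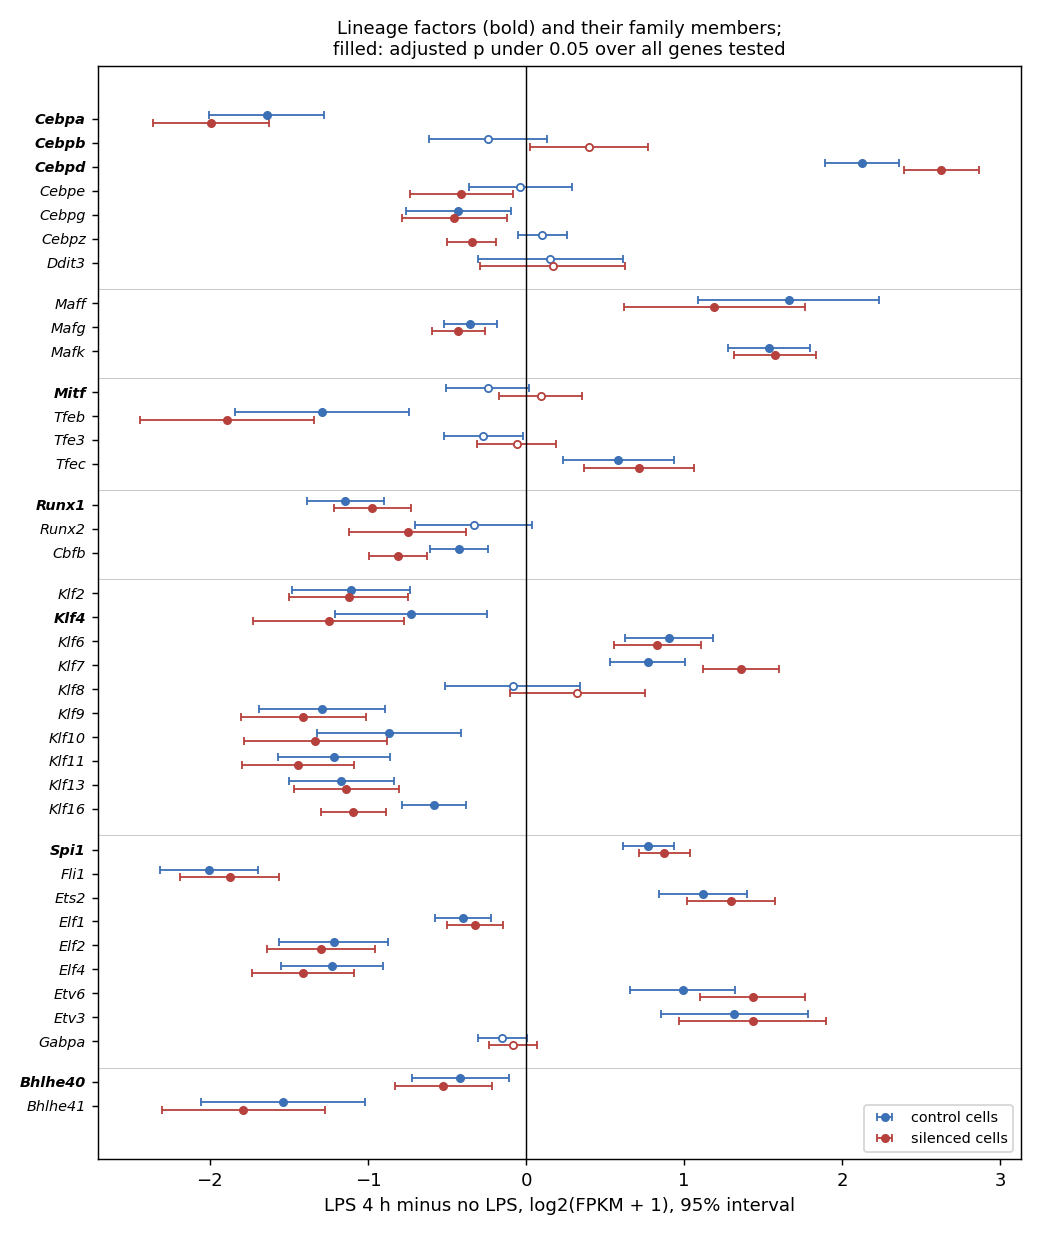
LPS difference (x axis, log2(FPKM + 1), point and 95% interval from limma) of the tested factors in bold and the tested relatives reported here (y axis), in control and silenced cells, with filled points for an adjusted p under 0.05. Within the C/EBP, MAF, KLF and ETS families, genes lie on both sides of 0, from -2.01 (Fli1) to 2.12 (Cebpd) in control cells.

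Silencing was tested at each time and averaged over both. Of the 8 factors none was called without LPS, none after LPS and none on average, against 0.214%, 0.719% and 1.04% of all genes. Without the adjustment, 0, 3 and 1 of them had p under 0.05, and over all genes 1565, 1697 and 1801 did. The factors' medians were -0.05, -0.02 and -0.02, beside 0.01, -0.03 and -0.01 for all genes. Without LPS no factor's groups were separate, against 18.2% of all genes. After LPS 3 were, Cebpb and Cebpd higher and Cebpa lower in silenced cells, against 18.9% of all genes.

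Among these, Cebpb had the smallest p. After LPS it was 17.4 ± 5.31 FPKM in control and 29.1 ± 2.22 in silenced cells, a difference of 0.74 ± 0.17 with a 95% interval of 0.37 to 1.12 (limma, adjusted p = 0.0833). Without control LPS replicate 3, the library at 23.5 FPKM, the difference was 0.97 and passed (adjusted p = 0.0103), as did the average over both times (0.54, adjusted p = 0.0161, against 0.42 ± 0.12 and 0.143 with all libraries). Leaving out any of the other libraries gave no call. Without LPS it was 0.10 ± 0.17.

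Cebpd was higher in silenced cells after LPS by 0.31 ± 0.11 (95% interval 0.08 to 0.55, limma adjusted p = 0.238) and Mitf by 0.29 ± 0.12 (0.03 to 0.55, adjusted p = 0.332). Cebpa measured -0.32 ± 0.17 (adjusted p = 0.461). The remaining factors lay between -0.22 (Klf4) and -0.01 (Runx1) after LPS. Their intervals after LPS reach from -0.70 to 0.26 for Klf4, from -0.47 to 0.14 for Bhlhe40, from -0.26 to 0.23 for Runx1 and from -0.19 to 0.13 for Spi1.

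Whether silencing changed the LPS response was tested as an interaction. None of the 8 factors was called, against 0.0612% of all genes. Cebpd (0.50 ± 0.15, limma adjusted p = 0.300) and Cebpb (0.64 ± 0.24, adjusted p = 0.367) had p under 0.05 before adjustment, as had 1480 of all genes. The LPS differences of Klf4 and Mitf were apart between the kinds of cell by -0.52 ± 0.31 and 0.33 ± 0.17, neither of which passed.

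**Figure D4:**
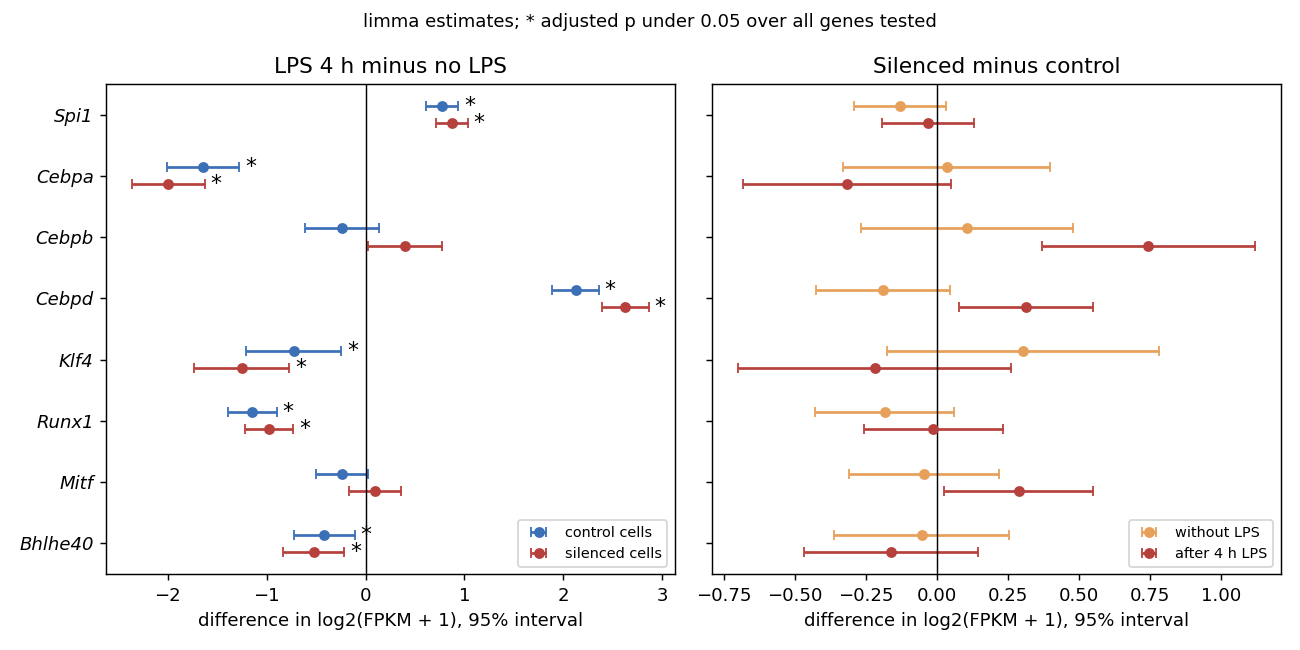
Differences in log2(FPKM + 1) (x axis, point and 95% interval from limma) of the 8 tested factors (y axis): left, LPS against none in control and silenced cells; right, silenced against control cells without and after LPS. Stars mark adjusted p under 0.05 and occur for 6 factors on the left and for none on the right, where Cebpb after LPS (0.74) lies farthest from 0.

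Other myeloid factors and known targets place these values in their pathway. The lists were written with earlier results of these data known, and several targets are themselves LPS-induced genes. Of 23 tested myeloid factors outside the families above, 2 rose and 11 fell with LPS in control cells, and 3 rose and 12 fell in silenced cells (4 and 10, and 6 and 8, with median-ratio scaling). The falls include Nr4a1 and Rxra, which entered the test only through the libraries without LPS. As a baseline, LPS calls over all genes tested were 15.3% higher and 32.9% lower for control cells. The silenced cells had 13% called higher and 35.5% lower. Irf4 rose from 0.439 ± 0.0295 to 9.45 ± 3.48 FPKM in control cells. Lyl1, a factor of blood progenitors, fell from 47.3 ± 4.10 to 8.91 ± 1.48, and Id3, an inhibitor of helix-loop-helix factors, fell from 21.3 ± 0.818 to 4.52 ± 0.588.

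Silencing, averaged over both times, raised 2 of these 23 genes, where 1.04% of all genes were called. Irf8, the factor of monocyte and dendritic cell development that pairs with PU.1, was 6.05 ± 0.380 against 9.15 ± 1.04 FPKM without LPS and 7.17 ± 0.376 against 10.1 ± 0.822 after it (0.48 ± 0.07, limma adjusted p = 0.00768). Nfil3, a basic leucine zipper repressor, rose by 0.58 ± 0.11 (adjusted p = 0.0260), and in 9 of the 12 fits that each left out 1 library it did not pass. Cbfb fell after LPS from 38.4 ± 1.55 in control to 27.1 ± 1.47 FPKM in silenced cells (-0.49 ± 0.08, adjusted p = 0.0307), which did not pass with quantile normalization (0.0724) or in 6 of those 12 fits.

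Of 23 textbook PU.1 targets, 8 rose and 4 fell with LPS in control cells and 10 rose and 4 fell in silenced cells (12 and 3, and 14 and 2, with median-ratio scaling). The rises include Il1b, which passed the limit on low values only through the LPS libraries. A gene of this pattern had to differ. Among all genes tested, LPS calls in control cells were 15.3% higher and 32.9% lower. For silenced cells these shares were 13% and 35.5%. Cybb, the phagocyte oxidase subunit, rose from 48.0 ± 2.17 to 112 ± 6.09 FPKM in control cells, and Csf1r, the receptor for macrophage growth factor, fell from 327 ± 12.5 to 203 ± 39.9. After LPS, silenced cells were higher in 3 of the 23, Cybb (0.60 ± 0.08), Msr1 (0.61 ± 0.09) and Fcgr1 (0.78 ± 0.15), against 0.719% of all genes. That count was 0 to 3 when 1 library was left out and 0 when only the groups compared were fitted. Msr1 and Fcgr1 are also among the macrophage markers called above, so these counts are not separate results. Spi1 itself measured -0.03 ± 0.07 in the same comparison. The list's median was 0.35, beside -0.03 for all genes.

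Of 14 tested C/EBP targets, 10 rose and 3 fell with LPS in both kinds of cell. Of these, 7 (C3, Csf3, Il1b, Il6, Lcn2, Nos2 and Saa3) passed the limit on low values only through the LPS libraries. Lpin1 passed it only through those without LPS. Genes of these patterns had to differ, so the count describes the list only. LPS calls over all genes were 15.3% higher and 32.9% lower for control cells. The silenced cells had shares of 13% and 35.5%. After LPS, silenced cells were higher in 3 of the 14 against 0.719% of all genes, Tnf (0.79 ± 0.08), the prostaglandin synthase Ptgs2 (1.28 ± 0.16) and the lysozyme Lyz2 (1.22 ± 0.17). That count was 1 to 4 when 1 library was left out and 0 when only the groups compared were fitted. Here too Lyz2 is shared with the macrophage markers called above. Lyz2 was also called higher without LPS (1.11 ± 0.17), which did not pass with quantile normalization (limma, adjusted p = 0.0630) or in 7 of the 12 fits that each left out 1 library. Tnf was the 1 target with a called interaction (0.85 ± 0.12, limma adjusted p = 0.0344), which did not pass in 10 of the 12 fits that each left out 1 library.

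Of 12 tested MITF targets, 5 rose and 4 fell with LPS in both kinds of cell (6 and 3 with median-ratio scaling). The control cells had 15.3% of all genes called higher with LPS and 32.9% lower. For silenced cells the shares were 13% higher and 35.5% lower. Ocstamp, needed for osteoclast fusion, rose from 4.53 ± 0.403 to 28.7 ± 1.64 FPKM in control cells, and the phosphatase Acp5 from 26.1 ± 2.44 to 46.6 ± 6.50. In silenced cells after LPS they stood at 14.1 ± 1.47 and 30.1 ± 1.76 and were called lower (-0.98 ± 0.15 and -0.61 ± 0.10), against 0.719% of all genes called. Such calls among the targets numbered 0 to 2 when 1 library was left out and 0 when only the groups compared were fitted. Acp5 did not pass with quantile normalization (limma, adjusted p = 0.0532) or in 7 of the 12 fits that each left out 1 library. Ocstamp did not pass in 4 of those fits. Both genes are also on the list of osteoclast markers. Mitf was not called for silencing after LPS, with a difference of opposite sign (0.29 ± 0.12). Ocstamp was also called lower in silenced cells without LPS (-0.90 ± 0.15, limma adjusted p = 0.0390), which did not pass in 10 of the 12 fits.

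The genes most like each factor were found over the 12 libraries, 6 of which had LPS, so genes that differ with LPS are alike in this measure. By Pearson's r of log2(FPKM + 1), described without a test, Spi1 was nearest to Ccl2, Itga5 and Myd88 (0.99 each) and Cebpd to Tap1, Tnf and Tlr3 (0.99 or above). Cebpa was nearest to Fzd7, Tbl2 and Lrrc8b, and Runx1 to Ankrd10, Arhgef11 and Mnt. These patterns are common: 1258 of 6631 candidate genes had r over 0.9 with Cebpa, 1223 with Runx1, 593 with Cebpd and 553 with Spi1. Fewer were as close to Klf4 (228, led by Got1 at 0.97) and Bhlhe40 (47, led by Cd300a at 0.96). Mitf had 1 such gene, Kif3b (0.90), and Cebpb none, with Lamp2 nearest at 0.83.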

How the data were processed

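The authors deposited 1 table of gene FPKM for 12 RNA-seq libraries. HISAT2, StringTie and the build GRCm38 are named in the submitters' processing notes. For their versions, the annotation release and the strand setting, the answer is not given in the sources used here. Since FPKM carry no counts, count models were not used. The 13078 genes that reached 1 FPKM in 3 or more libraries were tested by limma 3.58.1 in R 4.3.3 on log2(FPKM + 1), a scale that understates changes of low genes. Of 2 records named Itgam the higher was used. The fit held 1 mean per group and an intensity trend. Tests were 2-sided, with Benjamini-Hochberg adjustment over all genes tested, and called at an adjusted p under 0.05. Values are means ± SD, and differences log2 ± SE.

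The Cebpb to Cebpa ratio was tested by exact permutation of libraries within strata (Python 3.11.15). Coordinates and exons come from GENCODE M21, promoters from RefSeq. Motifs were searched on both strands. The scripts were tested on simulated data.

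The factors and gene lists were chosen with earlier results of these data known. Text names the 9 factors, Trappc4, tested relatives, up to 4 called genes per list and comparison (the 2 with the smallest p where none was called), and the 3 nearest genes by correlation. Tmem189, Spidr, Irf4 and marker genes at or near 0 (Mertk, Ly6g, Mpo, Calcr) were added after their values were seen. Of the relatives, 1 is not reported here. Settings varied were the pseudocount, filter, scaling, replicate block, groups fitted, trend, and each library left out.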

Additional observations from a re-analysis of the deposited data

How the results depend on the processing

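The Spi1, Cebpd and Runx1 responses to LPS passed in both kinds of cell under every alternative in which the gene was tested, as did Klf4 in silenced cells. Cebpa entered the test only through libraries without LPS, so its calls say nothing of stability. The count of factors called for silencing after LPS, and on average, ran from 0 to 1 when 1 library was left out, the 1 being Cebpb without control LPS replicate 3, and was 0 under all other settings. With LPS, median-ratio scaling gave 4 called factors in control and 7 in silenced cells. Cebpb in silenced cells passed when only the groups compared were fitted (adjusted p = 0.01), and Bhlhe40 in control cells did not without the filter (0.0605). Leaving out 1 library, the log2 Cebpb to Cebpa difference for silencing ranged from 0.77 to 1.01 over both times and from -0.0415 to 0.223 without LPS, where 2 fits turned its sign (-0.0265 and -0.0415). Same-numbered libraries had r from -0.03 to 0.19 for their deviations from the group means, with 3 of 18 over 0.1 and 11 of 18 best with their own number, so a weak pairing is possible. Since not every r was over 0.1, the numbers were not taken to pair the samples. With a replicate block the ratio difference over both times, 0.86, had an exact permutation p of 0.0625, Mitf fell with LPS in control cells (adjusted p = 0.0360), and all counts of called factors for silencing remained 0. Over all genes, calls for silencing without LPS (28) ranged from 6 to 48 over settings and 3 to 40 with 1 library left out. After LPS (94) they were 0 with only the groups compared, 38 with quantile normalization and 50 with no intensity trend, and ranged from 10 to 96 with 1 library left out, and on average (136) from 104 to 175 and 63 to 142, with the interaction (8) from 4 to 11 and 0 to 20. The share of calls after LPS that were higher, 43.6%, was 59.6% with median-ratio scaling and 73.7% with quantile normalization. For the interaction it was 62.5% and 83.3% with median-ratio scaling. The causes were not tested. Depth is unknown.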
